A study of Mus musculus with 7 samples.

Results

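The 50 genes described here encode the machinery of mitosis: the cyclin-dependent kinase that starts it, the other mitotic kinases, the spindle checkpoint, the kinetochore, the spindle motors, the cytokinesis proteins and the condensins. They were listed by symbol, and the rule itself uses no measured value. The list was drawn up with earlier results of these data known. All 50 genes were found among the 11641 genes assembled in at least 1 of the 7 libraries. The libraries are RNA sequencing of wild-type primary B cells from C57BL/6 mice, and each condition is 1 library. 1 library was of unstimulated cells at 0 h. The other libraries were of cells given both anti-IgM and BAFF, anti-IgM alone or BAFF alone, each at 8 h and at 30 h. Anti-IgM is an antibody that cross-links the B cell antigen receptor. BAFF is a cytokine of the tumour necrosis factor family on which mature B cells depend for survival. The doses, the purification of the cells and the age of the mice are not given in the sources used here. Against the 0 h cells, stimulus and time in culture cannot be told apart, as none of the libraries analysed here is of cells cultured without either agent. With 1 library per condition no test between conditions was possible, and intervals below cover counting error only. In bulk RNA, fewer cells of a type and less RNA per cell cannot be told apart, which here applies to the share of cells in mitosis.

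Resting B cells sit outside the division cycle, and a stimulated cell must pass through growth and DNA replication before it builds a spindle. Entry into mitosis is set by CDK1 bound to cyclin B and activated by CDC25 phosphatases, with Polo-like and Aurora kinases acting beside it. The spindle checkpoint then holds the anaphase-promoting complex (APC/C, the ubiquitin ligase that triggers chromosome separation) until every kinetochore is attached. Most genes of this machinery are transcribed late in the cycle. In resting cells the DREAM complex represses them. In dividing cells its MuvB core works with B-MYB and FOXM1 to activate them. MuvB reads a promoter element called CHR (cell cycle genes homology region), often found with CCAAT boxes, which the factor NF-Y reads.

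Promoters were available for 42 of the 50 genes, 45 promoters in all, each from 250 bases before to 50 after a RefSeq start site on GRCm38.p6, the assembly of mm10. The CHR letters TTTGAA, searched on both strands (TTCAAA on the other), were in 35 of the 45 promoters (77.8%), against 17.9% of 32851 mouse promoters of the same length. CCAAT, searched on both strands (ATTGG on the other), was also in 35 of 45 (77.8%), against 37.4% of all. At least 2 CCAAT matches were in 22 (48.9%), against 11.7% of all, and both motifs were in 31 (68.9%), against 6.95% of all. The nearest CHR match lay within 50 bases of the start in 31 of the 35 (88.6%), against 27.6% of the 5878 promoters of all genes that hold one. Stretches of 7 promoters are printed, all of genes with a CHR match whose levels are followed below. Genes without a match, such as Ccnb1, Birc5 and Mad2l1, are followed too but are not printed. The stretches run from 120 bases before to 15 after the start, 5′ to 3′ on the strand of the gene, from RefSeq on GRCm38.p6. Capitals mark the CHR and CCAAT matches, which do not overlap in these stretches. The stretch of Ccnb2 (cyclin B2) is chr9:70421540-70421674 (minus strand), that of Cdk1 is chr10:69352898-69353032 (minus strand), and that of Cdc20, the APC/C activator, is chr4:118437329-118437463 (minus strand). The stretch of Ube2c, the ubiquitin-conjugating enzyme of the APC/C, is chr2:164769809-164769943 (plus strand). Those of the spindle motor Kif11 and of Top2a, the topoisomerase that untangles sister chromatids, are chr19:37376262-37376396 (plus strand) and chr11:99024175-99024309 (minus strand). The last, of the checkpoint gene Bub3, is chr7:131560250-131560384 (plus strand).
Ccnb2: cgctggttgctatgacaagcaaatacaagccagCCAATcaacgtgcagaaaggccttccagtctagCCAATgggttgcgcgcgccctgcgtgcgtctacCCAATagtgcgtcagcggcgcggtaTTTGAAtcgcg
Cdk1: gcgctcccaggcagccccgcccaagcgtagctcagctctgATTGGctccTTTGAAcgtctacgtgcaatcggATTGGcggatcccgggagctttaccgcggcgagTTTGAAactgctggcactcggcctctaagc
Cdc20: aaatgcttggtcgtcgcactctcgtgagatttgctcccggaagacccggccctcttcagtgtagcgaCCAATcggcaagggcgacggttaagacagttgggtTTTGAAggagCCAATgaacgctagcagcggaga
Ube2c: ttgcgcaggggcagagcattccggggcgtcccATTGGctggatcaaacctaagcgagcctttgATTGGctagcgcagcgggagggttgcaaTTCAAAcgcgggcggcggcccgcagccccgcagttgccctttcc
Kif11: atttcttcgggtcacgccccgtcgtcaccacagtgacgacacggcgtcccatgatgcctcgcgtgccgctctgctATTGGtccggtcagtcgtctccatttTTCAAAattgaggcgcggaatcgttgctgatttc
Top2a: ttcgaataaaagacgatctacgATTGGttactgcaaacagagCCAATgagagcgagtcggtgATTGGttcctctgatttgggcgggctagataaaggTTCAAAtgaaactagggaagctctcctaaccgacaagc
Bub3: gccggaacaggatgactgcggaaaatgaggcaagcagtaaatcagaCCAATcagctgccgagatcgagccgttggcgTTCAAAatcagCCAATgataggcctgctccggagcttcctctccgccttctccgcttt

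All 7 stretches hold a CHR match, as only genes with one were printed, and each has at least 1 CCAAT match before it. Bub3 holds both motifs as Ccnb2 and Cdk1 do, and it was at 29.3 FPKM before stimulation and was not counted higher at 30 h with any stimulus. Among all genes matched, the 32 with a CHR match had a median difference of 1.48 in log2(FPKM + 1) between anti-IgM at 30 h and the unstimulated library. The 10 genes without a match (Birc5, Bub1, Ccnb1, Cdc25b, Cenpe, Mad2l1, Melk, Ncaph, Nuf2 and Nusap1) had a median of 1.69. A match is a description of the letters in this window and not of binding.

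Levels are FPKM (fragments per kilobase of transcript, scaled to the mapped fragments of the library), which the authors' Cufflinks assembly gave for each transcript, summed over a gene's transcripts of at least 300 bases. A difference is the difference in log2(FPKM + 1). Genes with a transcript in each library of a pair, and at least 1 FPKM in 1 of them, were compared. A gene was counted higher or lower when the difference was at least 1, that is 2-fold after adding 1, and the intervals of 2 SD of counting error did not overlap. Each library was assembled on its own from 18.7 to 28.6 M mapped reads, and many members came out in pieces. The members had a median of 1.5 transcripts each with both stimuli, 1 with anti-IgM and 1.5 with BAFF at 30 h, against a median of 2 in the unstimulated library and in each library at 8 h. The FPKM of pieces of 1 gene add up, which raises the sum where a gene is broken. A second measure, called exon density here, spreads all pieces over the whole exon length of the gene, also in FPKM. Unlike the sum, it takes in pieces under 300 bases. It is calculated from the same deposited FPKM, so it is no independent check, and it counts pieces on either strand. Its calls use the same size of 1 and no interval.

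**Figure D1:**
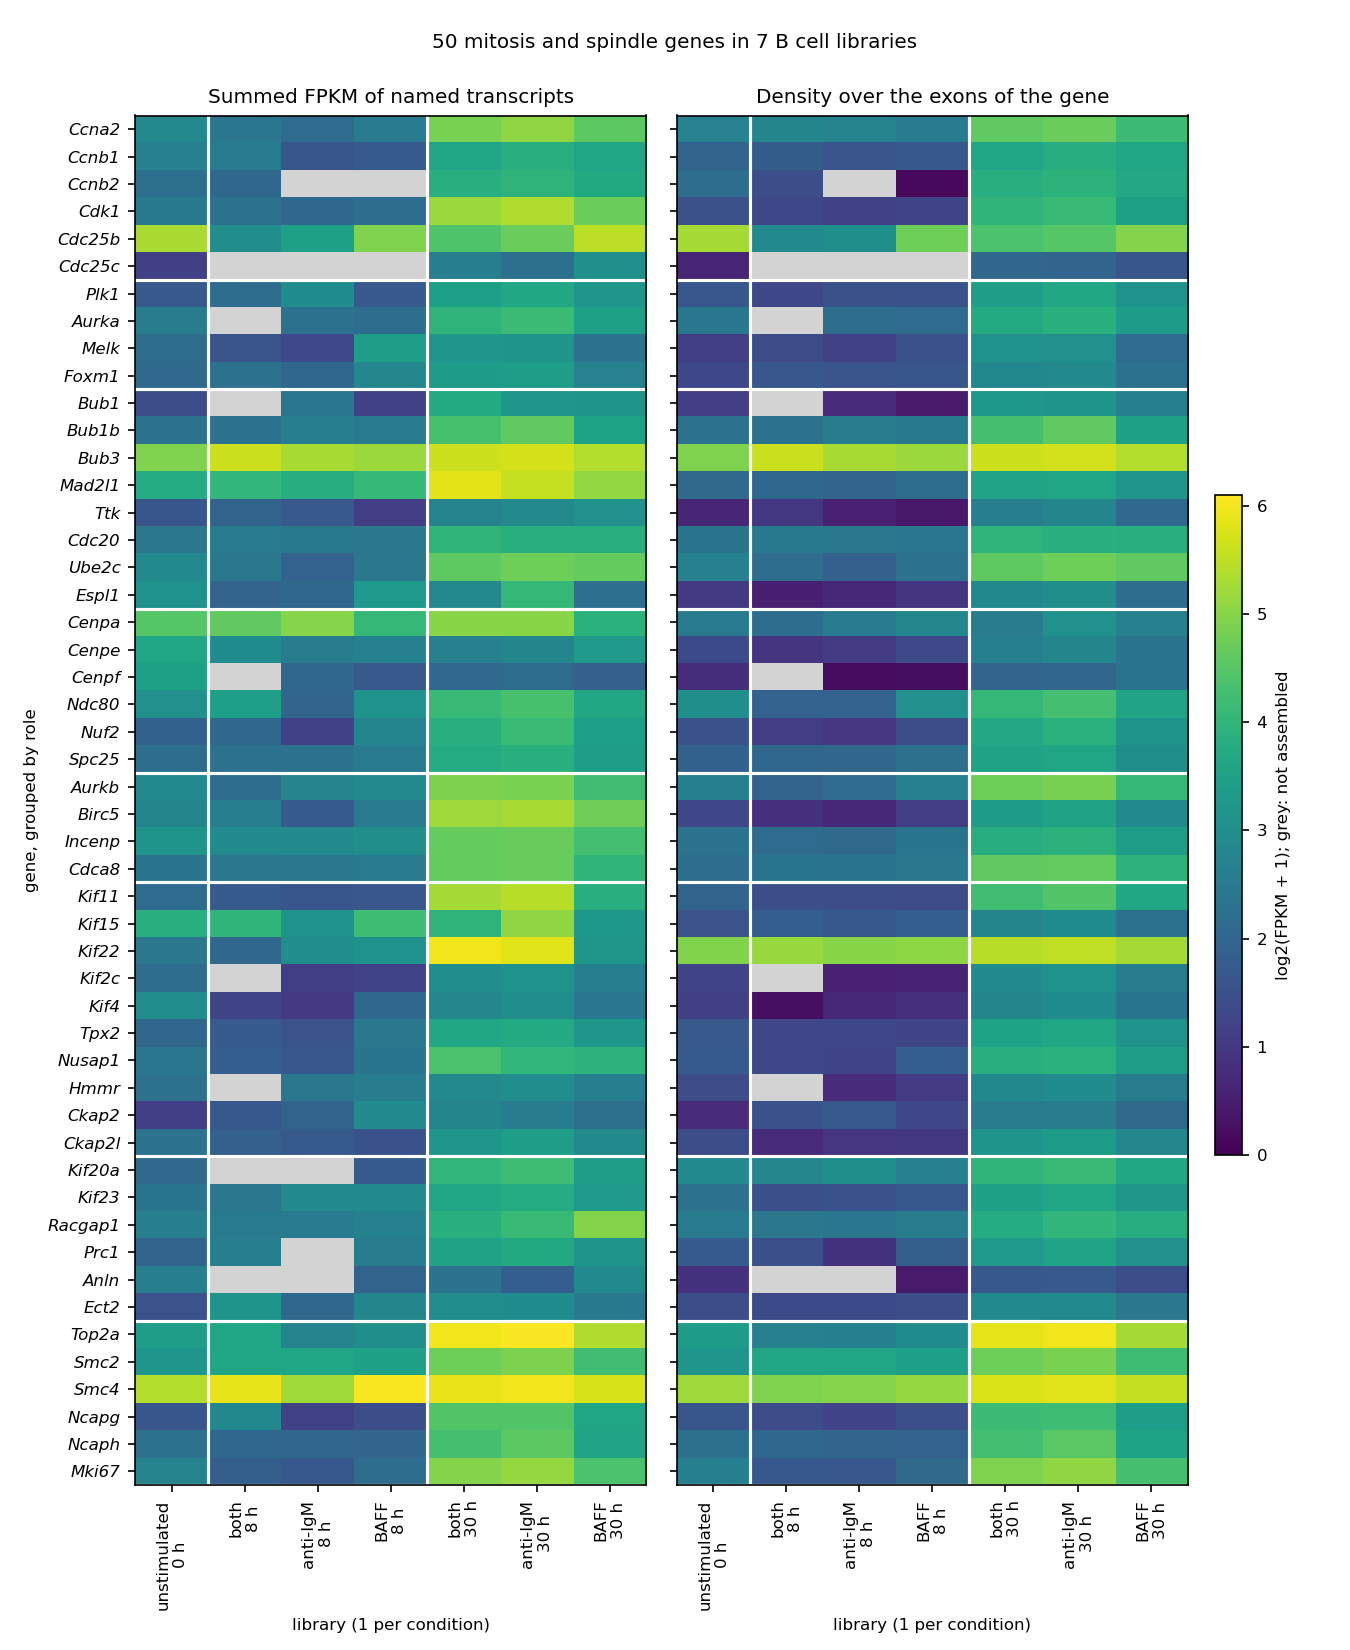
Colour gives log2(FPKM + 1) of the 50 genes (rows, grouped by role, white lines between roles) in the 7 libraries (columns), as summed FPKM on the left and as exon density on the right, with grey where a gene was not assembled. The 3 columns at 30 h are brighter than the 4 others for most genes, and the pattern is more even on the right.

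At 30 h the mitosis genes were high in every stimulated library, and at 8 h they were not. The median level over the assembled members was 4.33 FPKM in the unstimulated library, 4.30, 3.36 and 4.78 FPKM with both stimuli, anti-IgM and BAFF at 8 h, and 14.6, 16.5 and 10.3 FPKM with both stimuli, anti-IgM and BAFF at 30 h. The 50 genes together summed to 993 FPKM with both stimuli, 1069.5 with anti-IgM and 722 with BAFF at 30 h, against 364 FPKM in the unstimulated library. The reads behind a typical member changed in the same way, with medians of 181 reads at 0 h, 124 to 188 at 8 h and 534.5 to 987 at 30 h. All 50 were assembled at 0 h and in the 3 libraries at 30 h. The gaps were all at 8 h, where 42 were assembled with both stimuli, 45 with anti-IgM and 48 with BAFF.

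Against the unstimulated library at 30 h, 36 of 50 members were counted higher with both stimuli, against 8.35% of the 9877 genes compared. With anti-IgM 38 of 50 were counted higher, against 8.44% of 9915. With BAFF alone 28 of 50 were, against 5.21% of 9956. The same gene, Cenpf, was the 1 member counted lower in each case, against 7.86% of genes with both stimuli, 7.34% with anti-IgM and 4.1% with BAFF. The median difference of the members was 1.54 with both stimuli, 1.57 with anti-IgM and 1.18 with BAFF, against 0.02, 0.06 and 0.07 over all genes compared. By exon density 44 of 50 were higher with both stimuli (8.09% of all genes), 44 with anti-IgM (8.22%) and 35 with BAFF (3.32%). These 3 comparisons share the unstimulated library.

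Among the 40 members assembled in all 7 libraries, 28 had their 3 levels at 30 h all above their 4 other levels, against 6.41% of 9252 genes. The other 12 were Cdc25b, Melk, Foxm1, Bub3, Espl1, Cenpa, Cenpe, Kif15, Kif4, Ckap2, Ect2 and Smc4. By exon density it was 39 of 42, against 8.64% of 10181 genes, and the 3 others were Cdc25b, Bub3 and Cenpa.

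**Figure D2:**
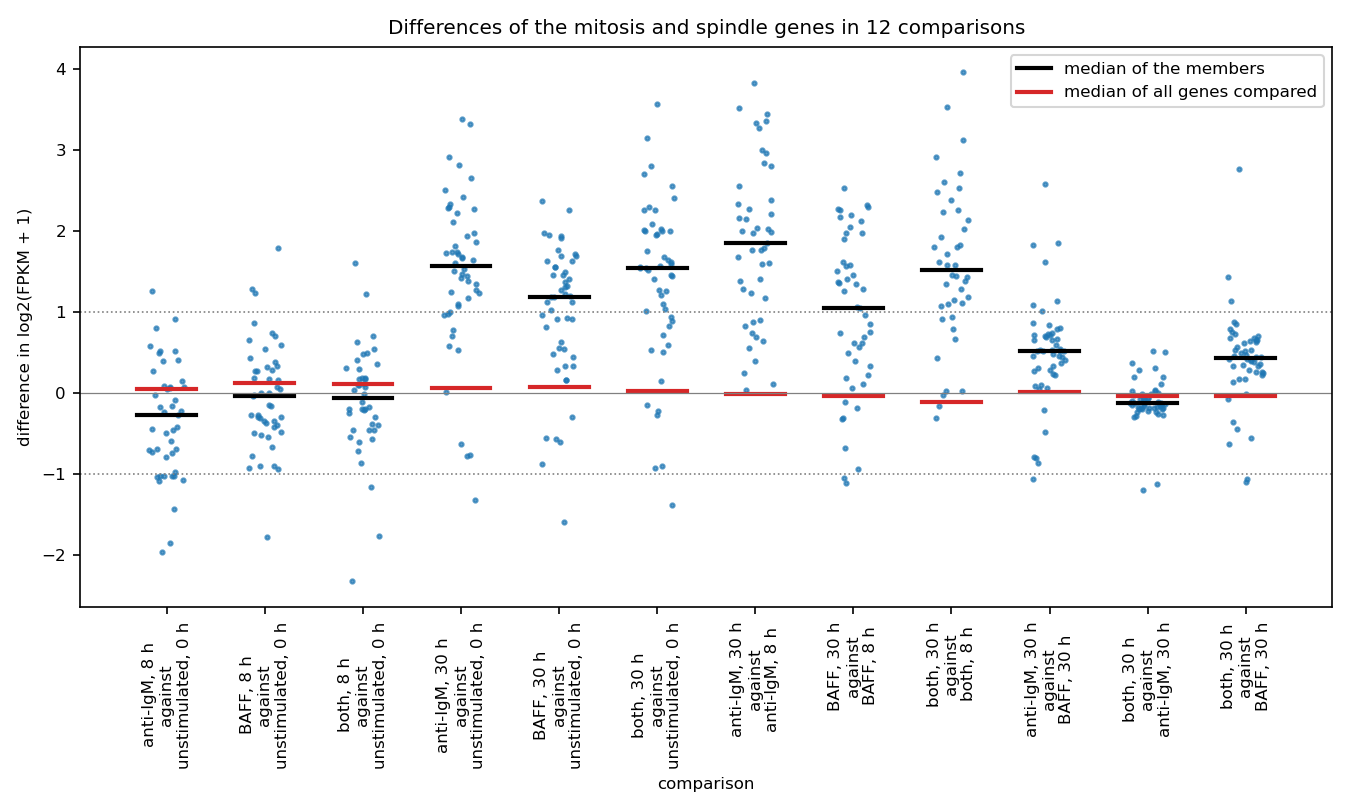
Each point is 1 mitosis gene and the vertical axis is its difference in log2(FPKM + 1), for the 12 comparisons along the horizontal axis. Black bars are the medians of the members, red bars those of all genes compared, and dotted lines mark a difference of 1 either way. The points lie around 0 at 8 h against 0 h and mostly above 1 at 30 h with anti-IgM or both stimuli.

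The first role is the switch into mitosis. Of the 6 genes, 4 were counted higher at 30 h with both stimuli, 5 with anti-IgM and 4 with BAFF. Cdk1 had 4.54 FPKM in the unstimulated library, 3.81 FPKM with both stimuli, 3.13 with anti-IgM and 3.59 with BAFF at 8 h, and 35.1 FPKM with both stimuli, 40.5 with anti-IgM and 25.5 with BAFF at 30 h. The interval was 40.5 FPKM (37.8 to 43.2) with anti-IgM at 30 h, against 4.54 FPKM (3.61 to 5.47) unstimulated, a difference of 2.90. Its exon density was lower but in the same order, at 14.8 FPKM with both stimuli, 16.7 with anti-IgM and 10.1 with BAFF at 30 h, against 1.86 FPKM unstimulated. Ccna2 was at 6.27 FPKM in the unstimulated library, at 4.27 FPKM with both stimuli, 3.36 with anti-IgM and 4.69 with BAFF at 8 h, and at 28.4 FPKM with both stimuli, 32.9 with anti-IgM and 22.5 with BAFF at 30 h. Ccna2 encodes cyclin A2, which drives late S phase and G2, and its differences at 30 h were 2.02 with both stimuli, 2.22 with anti-IgM and 1.69 with BAFF. Ccnb1 had 5.34 FPKM in the unstimulated library, 4.61 FPKM with both stimuli, 2.08 with anti-IgM and 2.31 with BAFF at 8 h, and 11.1 FPKM with both stimuli, 13.3 with anti-IgM and 11.3 with BAFF at 30 h. Ccnb1, cyclin B1, was counted higher with anti-IgM (1.17) and lay just under the size required with both stimuli (0.94) and BAFF (0.95). Ccnb2 had 3.78 FPKM in the unstimulated library, 3.12 FPKM with both stimuli at 8 h, and 13.3 FPKM with both stimuli, 14.7 with anti-IgM and 12.1 with BAFF at 30 h, and was not assembled at 8 h with anti-IgM and BAFF. The 3 levels of Ccnb2 at 30 h were close to each other and well above the level at 0 h, with differences of 1.59, 1.72 and 1.45 with both stimuli, anti-IgM and BAFF. Its transcripts also cover same-strand exons of Rnf111 (1403 shared bases).

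The CDC25 phosphatases, which remove the inhibitory phosphates of CDK1, did not move together. Cdc25b had 39.2 FPKM in the unstimulated library, 7.0 FPKM with both stimuli, 10.1 with anti-IgM and 29.4 with BAFF at 8 h, and 20.5 FPKM with both stimuli, 25 with anti-IgM and 44 with BAFF at 30 h. Cdc25b was thus lowest in the 2 libraries given anti-IgM at 8 h, where it was counted lower than unstimulated by both measures with both stimuli (-2.33, exon density -2.37) and with anti-IgM (-1.86, exon density -2.24). At 30 h it stayed under the 0 h level with both stimuli (-0.90) and anti-IgM (-0.63), short of the size required, and with BAFF the difference was 0.16. No other member had a lower exon density at 30 h than at 0 h with any stimulus. Cdc25c had 1.24 FPKM in the unstimulated library, 5.15 FPKM with both stimuli, 3.79 with anti-IgM and 7.39 with BAFF at 30 h, and was not assembled at 8 h with both stimuli, anti-IgM and BAFF. Cdc25c was counted higher at 30 h with each stimulus by summed FPKM, from a level near the 1 FPKM minimum. Its sum with BAFF at 30 h lay in 3 pieces, and its exon density at 30 h was lowest with BAFF, at 2.09 FPKM. By exon density its differences against 0 h were 1.37 with both stimuli, 1.36 with anti-IgM and 0.98 with BAFF. The difference with BAFF was thus just under the size required.

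Of the mitotic kinases and Foxm1, all 4 were counted higher at 30 h with both stimuli, 3 with anti-IgM and 1 with BAFF. Plk1 had 2.26 FPKM in the unstimulated library, 3.53 FPKM with both stimuli, 6.77 with anti-IgM and 2.24 with BAFF at 8 h, and 9.96 FPKM with both stimuli, 11.5 with anti-IgM and 8.15 with BAFF at 30 h. Plk1, the Polo-like kinase that acts from mitotic entry to cytokinesis, had 11.5 FPKM (10.5 to 12.5) with anti-IgM at 30 h, against 2.26 FPKM (1.79 to 2.74) unstimulated. Its higher sum with anti-IgM at 8 h was spread over 3 pieces, and exon density there was 1.84 FPKM, against 2.13 FPKM unstimulated. Aurka was at 4.87 FPKM in the unstimulated library, at 3.95 FPKM with anti-IgM and 3.61 with BAFF at 8 h, and at 14.5 FPKM with both stimuli, 16.8 with anti-IgM and 10.002 with BAFF at 30 h, and was not assembled at 8 h with both stimuli. Aurka, the Aurora kinase of spindle poles, was counted higher with both stimuli (1.40) and anti-IgM (1.60), and had a difference of 0.91 with BAFF. Foxm1 had 3.23 FPKM in the unstimulated library, 3.81 FPKM with both stimuli, 3.15 with anti-IgM and 6.06 with BAFF at 8 h, and 9.13 FPKM with both stimuli, 9.74 with anti-IgM and 5.52 with BAFF at 30 h. Foxm1, the forkhead factor that activates late cell cycle genes, followed the same order at 30 h, with differences of 1.26, 1.34 and 0.62 with both stimuli, anti-IgM and BAFF. Its transcripts also cover same-strand exons of 4933413G19Rik. Melk was at 3.44 FPKM in the unstimulated library, at 2.05 FPKM with both stimuli, 1.56 with anti-IgM and 9.78 with BAFF at 8 h, and at 8.07 FPKM with both stimuli, 7.85 with anti-IgM and 3.97 with BAFF at 30 h. Melk, a kinase abundant in dividing cells, had its highest sum with BAFF at 8 h, over 4 pieces, where exon density was 1.91 FPKM, against 1.18 FPKM unstimulated. At 30 h its exon density was 7.78 FPKM with both stimuli, 7.52 with anti-IgM and 3.41 with BAFF.

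In the spindle checkpoint and anaphase group, 6 of 8 genes were counted higher at 30 h with each stimulus, and Bub3 and Espl1 were not. Bub1b had 4.01 FPKM in the unstimulated library, 3.94 FPKM with both stimuli, 5.06 with anti-IgM and 4.59 with BAFF at 8 h, and 19 FPKM with both stimuli, 23.6 with anti-IgM and 10.6 with BAFF at 30 h. Bub1b encodes BUBR1, the checkpoint kinase that holds CDC20 inactive, and was assembled as 1 transcript in all 7 libraries. Its interval with anti-IgM at 30 h was 23.6 FPKM (22.5 to 24.7), against 10.6 FPKM (9.84 to 11.4) with BAFF at 30 h and 4.01 FPKM (3.55 to 4.48) unstimulated. Mad2l1 was at 12.5 FPKM in the unstimulated library, at 15.5 FPKM with both stimuli, 12.9 with anti-IgM and 15.9 with BAFF at 8 h, and at 56.2 FPKM with both stimuli, 46.2 with anti-IgM and 33.7 with BAFF at 30 h. Mad2l1, the MAD2 subunit of the same checkpoint complex, was highest with both stimuli by summed FPKM. Bub3 had 29.3 FPKM in the unstimulated library, 48.1 FPKM with both stimuli, 38.6 with anti-IgM and 35.3 with BAFF at 8 h, and 48.6 FPKM with both stimuli, 50.9 with anti-IgM and 41.1 with BAFF at 30 h. Bub3, the WD40 partner of BUB1 and BUBR1, had intervals at 30 h that did not overlap that at 0 h, but differences of 0.71, 0.78 and 0.48 with both stimuli, anti-IgM and BAFF.

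Cdc20 had 4.33 FPKM in the unstimulated library, 4.76 FPKM with both stimuli, 4.54 with anti-IgM and 4.31 with BAFF at 8 h, and 14.8 FPKM with both stimuli, 13.7 with anti-IgM and 13.1 with BAFF at 30 h. Cdc20 carries substrates to the APC/C, and its intervals in the 3 libraries at 30 h overlapped one another. Ube2c was at 6.50 FPKM in the unstimulated library, at 4.44 FPKM with both stimuli, 2.81 with anti-IgM and 4.31 with BAFF at 8 h, and at 22.9 FPKM with both stimuli, 26.1 with anti-IgM and 24.3 with BAFF at 30 h. Ube2c was likewise similar with the 3 stimuli at 30 h, with differences against 0 h of 1.67, 1.85 and 1.76 with both stimuli, anti-IgM and BAFF. The checkpoint kinases Bub1 and Ttk were counted higher at 30 h with each stimulus. Bub1 had 12.3 FPKM with both stimuli, 8.26 with anti-IgM and 7.99 with BAFF at 30 h, against 1.78 FPKM unstimulated, and was not assembled with both stimuli at 8 h. Ttk, the MPS1 kinase, ranged from 1.15 FPKM with BAFF at 8 h to 7.47 FPKM with BAFF at 30 h, where it lay in 3 pieces. Its exon density at 30 h was lowest with BAFF, at 3.22 FPKM, against 5.14 with both stimuli and 5.83 with anti-IgM. Espl1 had 7.57 FPKM in the unstimulated library, 2.83 FPKM with both stimuli, 3.07 with anti-IgM and 8.68 with BAFF at 8 h, and 6.31 FPKM with both stimuli, 15.7 with anti-IgM and 3.65 with BAFF at 30 h. Espl1 encodes separase, the protease that cuts cohesin at anaphase, and its sums come from 1 transcript with BAFF at 30 h, against 4 pieces unstimulated. Its exon density was 6.23 FPKM with both stimuli, 7.18 with anti-IgM and 3.61 with BAFF at 30 h, against 1.04 FPKM unstimulated, so the direction with both stimuli and with BAFF differs between the measures.

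**Figure D3:**
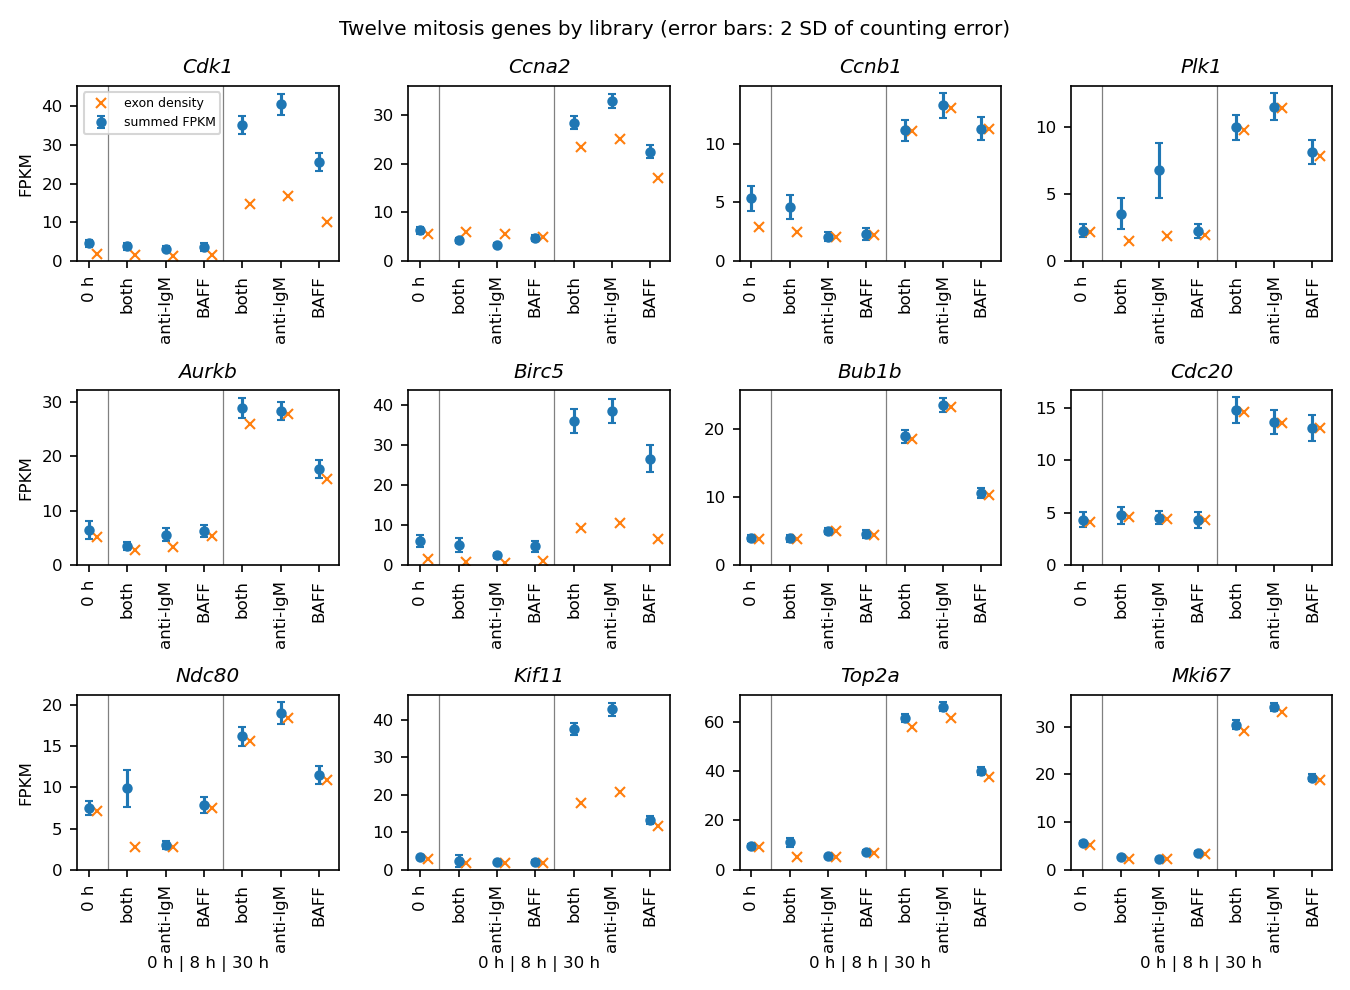
Each panel is 1 gene, with FPKM on the vertical axis and the 7 libraries along the horizontal axis (0 h, then both stimuli, anti-IgM and BAFF at 8 h and at 30 h). Circles are summed FPKM with bars of 2 SD of counting error, and crosses are exon density. In all 12 panels the 3 circles at 30 h stand above the 4 others, but none of the genes named above as lacking this separation is plotted. Sums stand above exon density in several panels, among them Plk1 and Ndc80 at 8 h and Cdk1, Birc5 and Kif11 at 30 h.

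Of the 6 centromere and kinetochore genes, 3 were counted higher at 30 h with both stimuli, 3 with anti-IgM and 2 with BAFF, with 1 lower each time. The median difference was 0.77 with both stimuli, 0.88 with anti-IgM and 0.12 with BAFF, and by exon density 1.23, 1.33 and 1.06. Ndc80 had 7.55 FPKM in the unstimulated library, 9.90 FPKM with both stimuli, 3.0 with anti-IgM and 7.84 with BAFF at 8 h, and 16.2 FPKM with both stimuli, 19.1 with anti-IgM and 11.5 with BAFF at 30 h. Ndc80 is the microtubule-binding arm of the outer kinetochore. It was assembled as 1 transcript at 0 h and with anti-IgM at 8 h, where it was counted lower by both measures (-1.10, exon density -1.11). Its partners in the same complex, Nuf2 and Spc25, were at 17 and 13.7 FPKM with anti-IgM at 30 h, against 2.70 and 3.61 FPKM unstimulated, differences of 2.28 and 1.67. Cenpa was at 21.6 FPKM in the unstimulated library, at 23.3 FPKM with both stimuli, 30.8 with anti-IgM and 15.8 with BAFF at 8 h, and at 31.5 FPKM with both stimuli, 31.5 with anti-IgM and 13.8 with BAFF at 30 h. Cenpa, the histone H3 variant that marks centromeres, was counted higher in no library against 0 h, and its exon density differences at 30 h were 0.10, 0.58 and 0.16 with both stimuli, anti-IgM and BAFF.

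Cenpf had 10.1 FPKM in the unstimulated library, 3.12 FPKM with anti-IgM and 2.25 with BAFF at 8 h, and 3.26 FPKM with both stimuli, 3.44 with anti-IgM and 2.67 with BAFF at 30 h, and was not assembled at 8 h with both stimuli. Cenpf, a large kinetochore protein, is the member counted lower at 30 h in each comparison with 0 h. It was assembled as 1 transcript in each library at 30 h, against 7 pieces unstimulated, and its exon density was 2.95 FPKM with both stimuli, 3.02 with anti-IgM and 4.10 with BAFF at 30 h, against 0.729 FPKM unstimulated. By that measure Cenpf was higher at 30 h, by 1.19, 1.22 and 1.56 with both stimuli, anti-IgM and BAFF. Of these 3 libraries, only that with BAFF had an exon density above the sum, 4.10 against 2.67 FPKM. That density thus takes in short pieces of Cenpf that the sum leaves out. With transcripts of every length, the difference in summed FPKM with BAFF at 30 h against 0 h was 3.65. Cenpe was at 11 FPKM in the unstimulated library, at 6.85 FPKM with both stimuli, 4.86 with anti-IgM and 5.38 with BAFF at 8 h, and at 5.30 FPKM with both stimuli, 5.97 with anti-IgM and 8.74 with BAFF at 30 h. Cenpe, the kinetochore kinesin, was also in pieces (6 at 0 h), and its exon density was 5.25 FPKM with both stimuli, 5.90 with anti-IgM and 4.07 with BAFF at 30 h, against 1.60 FPKM unstimulated. The direction of these 2 long genes against 0 h thus turned with the measure.

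All 4 genes of the chromosomal passenger complex, which corrects faulty kinetochore attachments and then moves to the central spindle, were counted higher at 30 h with each stimulus. Their median difference was 2.15 with both stimuli, 2.15 with anti-IgM and 1.47 with BAFF. Aurkb had 6.49 FPKM in the unstimulated library, 3.56 FPKM with both stimuli, 5.64 with anti-IgM and 6.28 with BAFF at 8 h, and 28.8 FPKM with both stimuli, 28.3 with anti-IgM and 17.6 with BAFF at 30 h. Aurkb is the Aurora kinase of the complex. Birc5 was at 5.99 FPKM in the unstimulated library, at 5.09 FPKM with both stimuli, 2.44 with anti-IgM and 4.69 with BAFF at 8 h, and at 35.8 FPKM with both stimuli, 38.5 with anti-IgM and 26.5 with BAFF at 30 h. Birc5 encodes survivin, which brings the complex to centromeres, and its interval with anti-IgM at 30 h was 38.5 FPKM (35.4 to 41.5), against 5.99 FPKM (4.43 to 7.55) unstimulated. Incenp, the scaffold, was at 24.4 FPKM with both stimuli, 24.8 with anti-IgM and 18.4 with BAFF at 30 h, against 7.93 FPKM unstimulated. Cdca8, which encodes borealin, was at 24.1 FPKM with both stimuli, 24.8 with anti-IgM and 14.8 with BAFF at 30 h, against 4.12 FPKM unstimulated. The 4 genes had a narrow range of differences with anti-IgM, from 1.53 to 2.50.

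Of the 10 spindle motors and microtubule proteins, 5 were counted higher at 30 h with both stimuli, 7 with anti-IgM and 3 with BAFF. By exon density their median difference was 1.70 with both stimuli, 1.85 with anti-IgM and 1.35 with BAFF. Kif11 had 3.38 FPKM in the unstimulated library, 2.33 FPKM with both stimuli, 2.10 with anti-IgM and 2.13 with BAFF at 8 h, and 37.6 FPKM with both stimuli, 42.8 with anti-IgM and 13.3 with BAFF at 30 h. Kif11 encodes Eg5, the motor that pushes spindle poles apart, and its interval was 42.8 FPKM (41.1 to 44.5) with anti-IgM at 30 h, against 13.3 FPKM (12.3 to 14.3) with BAFF at 30 h and 3.38 FPKM (3.01 to 3.76) unstimulated. Its exon density at 30 h was 17.9 FPKM with both stimuli, 20.7 with anti-IgM and 11.6 with BAFF. Kif22 was at 4.32 FPKM in the unstimulated library, at 3.07 FPKM with both stimuli, 6.96 with anti-IgM and 7.66 with BAFF at 8 h, and at 62.1 FPKM with both stimuli, 54.4 with anti-IgM and 8.33 with BAFF at 30 h. Kif22, a chromokinesin, shares 2276 exon bases on the same strand with Maz, and its exon density, which takes in those pieces, was 42.2 FPKM with both stimuli, 44.7 with anti-IgM and 37.6 with BAFF at 30 h, against 29.7 FPKM unstimulated. Its large differences in summed FPKM (3.57 with both stimuli and 3.38 with anti-IgM) are uncertain for that reason, and with both stimuli the interval ran from 31.7 to 92.5 FPKM.

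Kif15 had 13.1 FPKM in the unstimulated library, 15 FPKM with both stimuli, 7.69 with anti-IgM and 17.4 with BAFF at 8 h, and 14.6 FPKM with both stimuli, 33 with anti-IgM and 8.59 with BAFF at 30 h. Kif15, the motor that backs up KIF11, was in 2 to 9 pieces and overlaps Tmem42 by 2100 same-strand exon bases. Its exon density, which takes in pieces over those bases, was 5.82 FPKM with both stimuli at 30 h. It was 6.85 FPKM with anti-IgM and 3.80 with BAFF at 30 h, against 1.93 FPKM unstimulated. The direction with BAFF at 30 h against 0 h thus differs between the measures. Kif4 was at 6.89 FPKM in the unstimulated library, at 1.32 FPKM with both stimuli, 1.02 with anti-IgM and 3.21 with BAFF at 8 h, and at 6.08 FPKM with both stimuli, 6.96 with anti-IgM and 4.30 with BAFF at 30 h. Kif4, another chromokinesin, was 1 transcript in each library at 30 h, against 4 pieces unstimulated, and its exon density was 5.98 FPKM with both stimuli, 6.84 with anti-IgM and 4.19 with BAFF at 30 h, against 1.23 FPKM unstimulated. Kif2c had 3.48 FPKM in the unstimulated library, 1.19 FPKM with anti-IgM and 1.35 with BAFF at 8 h, and 6.92 FPKM with both stimuli, 7.71 with anti-IgM and 5.08 with BAFF at 30 h, and was not assembled at 8 h with both stimuli. Kif2c, a microtubule depolymerase, was not counted higher with any stimulus at 30 h by the sum, which came from 2 pieces at 0 h. By exon density its differences at 30 h were 1.69, 1.85 and 1.32 with both stimuli, anti-IgM and BAFF, all past the size required. The microtubule proteins Tpx2 and Nusap1 were at 12.2 and 15.4 FPKM with anti-IgM at 30 h, against 3.05 and 4.27 FPKM unstimulated. Tpx2 activates Aurora A on the spindle, and with BAFF at 30 h its interval was wide, 8.18 FPKM (0.0795 to 16.3), so it was not counted there. Ckap2l and Hmmr were lower, with highest levels of 9.57 and 6.91 FPKM with anti-IgM at 30 h, and Ckap2 had its highest level, 6.64 FPKM, with BAFF at 8 h, in 3 pieces.

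Among the 6 cytokinesis genes, 5 were counted higher at 30 h with both stimuli, 5 with anti-IgM and 3 with BAFF. Kif23 had 4.21 FPKM in the unstimulated library, 4.33 FPKM with both stimuli, 6.43 with anti-IgM and 6.58 with BAFF at 8 h, and 11.1 FPKM with both stimuli, 12.6 with anti-IgM and 8.91 with BAFF at 30 h. Racgap1 was at 5.09 FPKM in the unstimulated library, at 4.60 FPKM with both stimuli, 4.74 with anti-IgM and 5.38 with BAFF at 8 h, and at 13.6 FPKM with both stimuli, 16.2 with anti-IgM and 30.4 with BAFF at 30 h. Kif23 and Racgap1 encode the partners in centralspindlin, the complex that marks the cleavage plane. At 30 h Racgap1 was highest with BAFF, where its level rested on 4 pieces, and its exon density at 30 h was 12.7 FPKM with both stimuli, 15.2 with anti-IgM and 12.9 with BAFF. Anln had 5.09 FPKM in the unstimulated library, 2.83 FPKM with BAFF at 8 h, and 4.04 FPKM with both stimuli, 2.56 with anti-IgM and 6.43 with BAFF at 30 h, and was not assembled at 8 h with both stimuli and anti-IgM. Anln, anillin of the contractile ring, had the lowest exon density of the 50 members at 30 h in each of the 3 libraries. The motor Kif20a and the bundling protein Prc1 were at 17.4 and 12 FPKM with anti-IgM at 30 h, against 3.27 and 2.92 FPKM unstimulated. Ect2, the exchange factor that activates RhoA for furrowing, was at 1.94 FPKM at 0 h, 7.91 FPKM with both stimuli, 3.20 with anti-IgM and 5.92 with BAFF at 8 h, and 6.96 FPKM with both stimuli, 6.86 with anti-IgM and 4.51 with BAFF at 30 h. At 8 h with both stimuli Ect2 lay in 3 pieces.

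The chromosome structure genes had the largest median differences of the 8 roles with anti-IgM at 30 h, 2.34, with 2.13 for both stimuli and 1.44 for BAFF, and 5 of 6 were counted higher with each stimulus. Top2a had 9.72 FPKM in the unstimulated library, 11.1 FPKM with both stimuli, 5.59 with anti-IgM and 7.25 with BAFF at 8 h, and 61.7 FPKM with both stimuli, 66.3 with anti-IgM and 40.1 with BAFF at 30 h. With both stimuli at 8 h Top2a lay in 4 pieces, and its exon density there was 5.31 FPKM, against 9.21 FPKM unstimulated. Top2a had 66.3 FPKM (64.7 to 68) with anti-IgM at 30 h, against 9.72 FPKM (8.92 to 10.5) unstimulated. That level was the highest of any member in any library. Its interval overlaps those of Smc4 with BAFF at 8 h (62.3 to 67.4) and of Kif22 with both stimuli at 30 h (31.7 to 92.5). Mki67 was at 5.60 FPKM in the unstimulated library, at 2.61 FPKM with both stimuli, 2.22 with anti-IgM and 3.53 with BAFF at 8 h, and at 30.4 FPKM with both stimuli, 34.1 with anti-IgM and 19.3 with BAFF at 30 h. Mki67, the Ki-67 antigen that coats mitotic chromosomes and marks dividing cells, had lower levels in the 3 libraries at 8 h than at 0 h, and was counted lower there with anti-IgM (-1.03, exon density -0.98). Smc4 had 41 FPKM in the unstimulated library, 57.9 FPKM with both stimuli, 36.4 with anti-IgM and 64.9 with BAFF at 8 h, and 58.6 FPKM with both stimuli, 61.4 with anti-IgM and 52 with BAFF at 30 h. With both stimuli and with BAFF at 8 h Smc4 lay in 2 pieces. Its exon density there was 29.5 and 34.0 FPKM, against 36.1 FPKM unstimulated, so these directions differ between the measures. Smc4 and Smc2 are the ATPase core of condensin. Smc4 was already high before stimulation and was not counted as different from 0 h in any library, whereas Smc2 was at 26.1 FPKM with both stimuli, 28.7 with anti-IgM and 17.8 with BAFF at 30 h, against 8.28 FPKM unstimulated. The condensin I subunits Ncapg and Ncaph were at 20.8 and 22.6 FPKM with anti-IgM at 30 h, against 2.11 and 3.91 FPKM unstimulated.

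**Figure D4:**
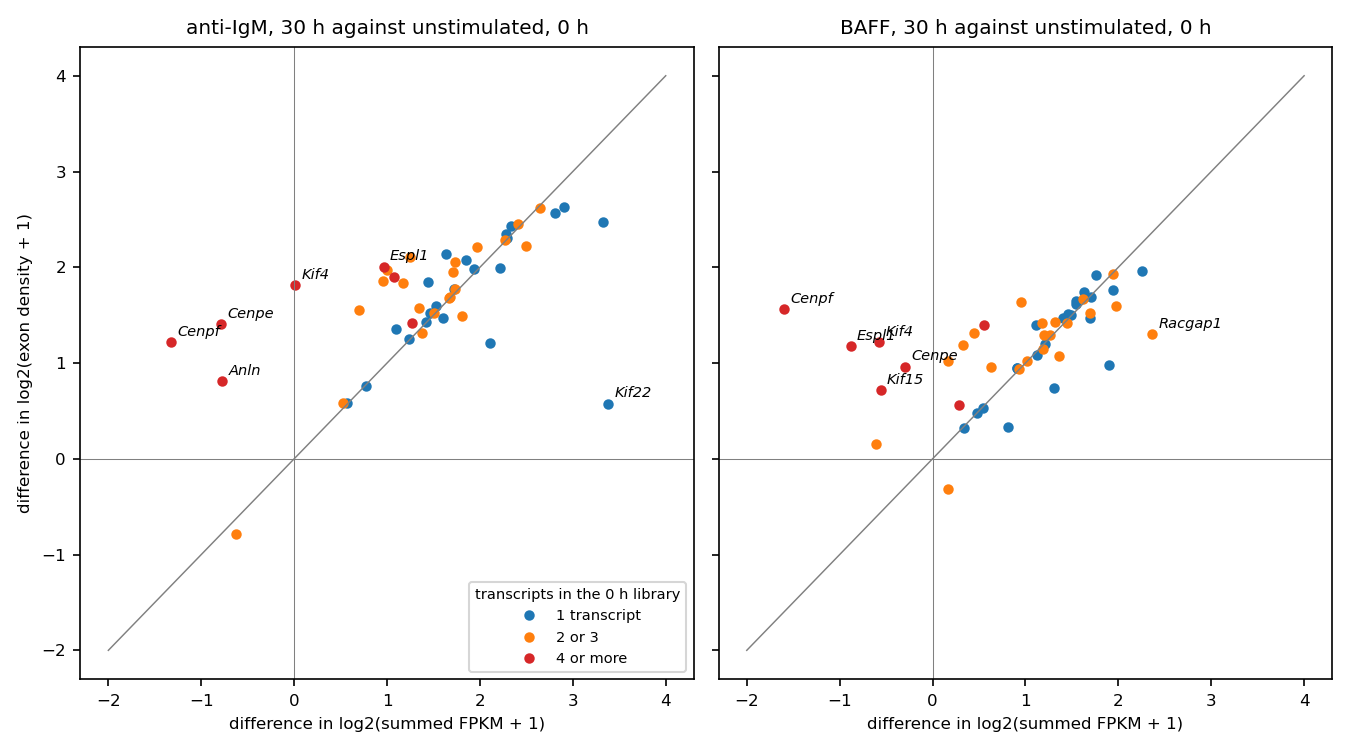
Each point is 1 mitosis gene at 30 h against 0 h, with its difference in log2(summed FPKM + 1) on the horizontal axis and in log2(exon density + 1) on the vertical axis, for anti-IgM (left) and BAFF (right). Colour gives the number of transcripts at 0 h, the line marks equal values, and genes whose 2 differences are at least 1 apart are named. The genes in 4 or more pieces at 0 h lie on or above the line, Cenpf farthest, and Kif22 lies far below it with anti-IgM.

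At 8 h few members passed the rule, and most of those that did moved down with anti-IgM. With both stimuli 2 of 42 were counted higher (12.3% of all genes compared) and 3 lower (8.87%). With anti-IgM 1 of 45 was counted higher (10.8% of all) and 10 lower (10.6%). With BAFF 3 of 48 were counted higher (5.6%) and 1 lower (4.31%). The median difference was -0.07 with both stimuli, -0.28 with anti-IgM and -0.04 with BAFF, against 0.11, 0.05 and 0.12 over all genes. The 10 lower with anti-IgM were Ccnb1, Cdc25b, Espl1, Cenpe, Cenpf, Ndc80, Birc5, Kif2c, Kif4 and Mki67. By exon density 2 of the 45, Cdc25b and Ndc80, were lower with anti-IgM (8.46% of all genes). With both stimuli 2 were lower (8.62%) and with BAFF 1 (3.14%). The members counted higher were Ect2 and Ncapg with both stimuli, Plk1 with anti-IgM, and Melk, Ckap2 and Ect2 with BAFF, and their exon density differences in those comparisons ran from -0.24 for Ncapg to 0.59 for Ckap2. The shares at 8 h were thus below or near those of all genes, apart from the lower calls with anti-IgM by summed FPKM, at 10 of 45 members.

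The comparison of 30 h with 8 h under the same stimulus does not use the unstimulated library. With both stimuli 32 of 42 members were counted higher at 30 h than at 8 h (5.58% of all genes) and 0 lower (6.95%). With anti-IgM 34 of 45 were counted higher (8.01%) and 0 lower (5.38%). With BAFF 25 of 48 were counted higher (3.64%) and 2 lower (4.2%), Melk and Espl1. The median difference was 1.51 with both stimuli, 1.85 with anti-IgM and 1.05 with BAFF, against -0.12, -0.02 and -0.05 over all genes. By exon density the members higher at 30 h were 38 of 43 with both stimuli (5.22%), 42 of 47 with anti-IgM (5.98%) and 34 of 49 with BAFF (2.49%), and Melk and Espl1 were higher at 30 h than at 8 h with BAFF.

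The largest of these differences by summed FPKM were in Kif22 with both stimuli (3.95) and in Kif11 with anti-IgM (3.82), and Kif11 was at 3.53 with both stimuli. By exon density Mki67 was the first with both stimuli (3.24) and with anti-IgM (3.43), and Ccnb2 with BAFF (3.54), with 11.9 FPKM at 30 h against 0.106 FPKM at 8 h, where no transcript took its name. Ube2c was next with BAFF at 2.33. Bub3 had the smallest differences with both stimuli (0.02) and anti-IgM (0.38). These 3 comparisons share no library with one another.

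Between stimuli at 30 h the members were ordered alike. Of the 50, 33 were highest with anti-IgM, next with both stimuli and lowest with BAFF, against 22.2% of 9848 genes. By exon density 39 of 50 had this order, against 24.8% of all. With anti-IgM 44 of 50 were above BAFF at 30 h, by a median of 0.52, against 0.00 over all genes. Of them 7 passed the rule (3.99% of all genes), namely Bub1b, Espl1, Cenpa, Kif11, Kif15, Kif22 and Ncaph, and Anln was counted lower (4.71%). By exon density 1 member, Bub1b (1.11), differed by at least 1 (2.67% of all genes), Ncaph was next at 0.99, and the median was 0.51. The members at near the same exon density with anti-IgM and BAFF were Cdc20 (0.05), Ube2c (0.16) and Ccnb1 (0.20). The difference between these stimuli was thus spread over most members and mostly under 2-fold.

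With BAFF the members lay between the unstimulated cells and anti-IgM. By summed FPKM 39 of 50 had BAFF at 30 h above 0 h and below anti-IgM at 30 h, against 30.2% of all genes. By exon density 48 of 50 did, against 37.0%, and the 2 others were Cdc25b and Cenpf. These 2 shares use the same libraries as the comparisons above. For Cenpf, the exon density with BAFF at 30 h takes in short pieces that the sum leaves out. By the sum Cenpf was lower with BAFF than with anti-IgM at 30 h, at 2.67 against 3.44 FPKM.

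Adding BAFF to anti-IgM moved few members. With both stimuli against anti-IgM alone at 30 h, 0 of 50 were counted higher (2.11% of all genes) and 2 lower (3.27%), Espl1 and Kif15, both in fewer pieces with both stimuli. The median difference was -0.13, against -0.04 over all genes, and 39 of 50 lay below 0. By exon density 0 members were higher by 1 (0.927% of all genes), and the differences ran from -0.48 for Cenpa to 0.10 for Cdc20. With both stimuli against BAFF alone at 30 h, 3 of 50 were counted higher (3.03%), Cenpa, Kif11 and Kif22, and 2 lower (5.09%), Cdc25b and Racgap1. The median there was 0.43, against -0.04 over all genes, and 42 of 50 lay above 0. By exon density 0 members were higher by 1 (2.06% of all genes), with Melk the nearest at 0.99 and Cdc25b the lowest at -0.60.

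**Figure D5:**
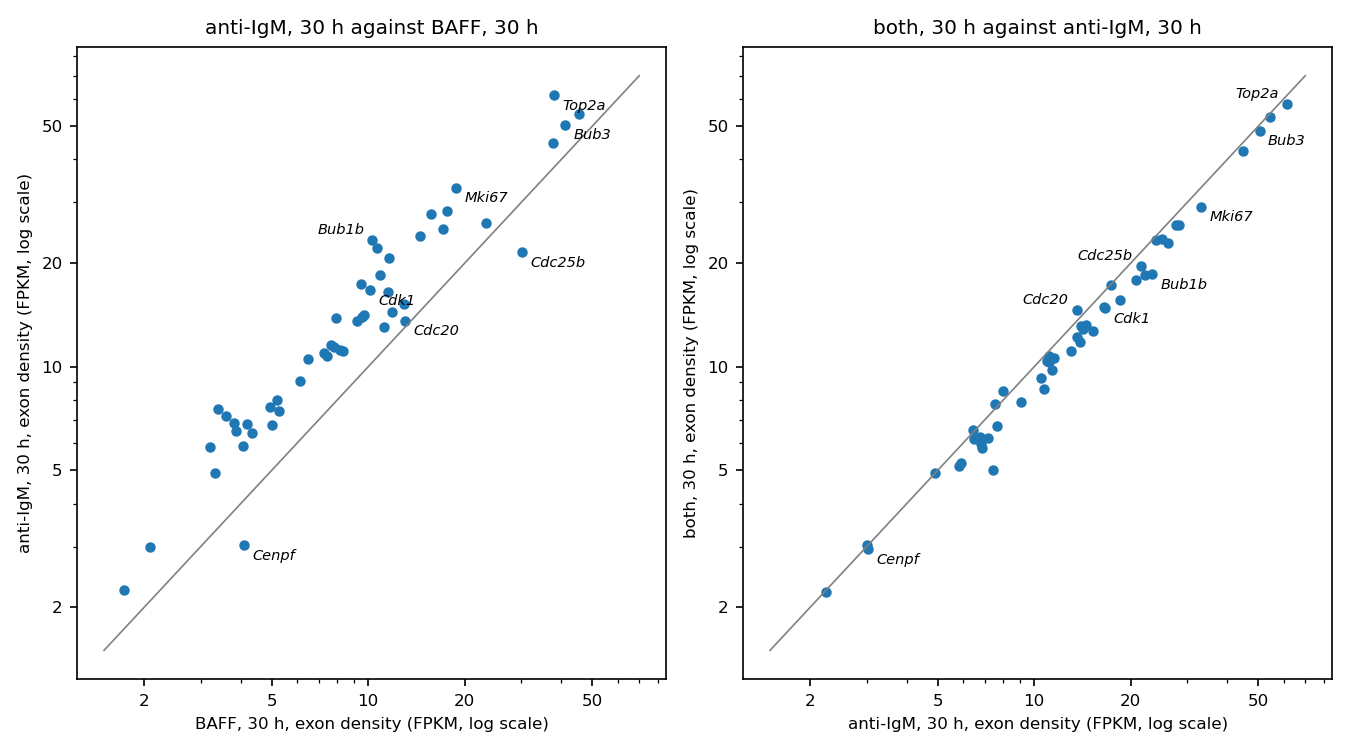
Each point is 1 mitosis gene at 30 h, with exon density in FPKM on log axes, anti-IgM (vertical) against BAFF (horizontal) on the left and both stimuli (vertical) against anti-IgM (horizontal) on the right. The grey line marks equal levels. On the left 48 of 50 points lie above the line, all but Cdc25b and Cenpf, and on the right the points lie close to it and mostly below. The exon density of Cenpf with BAFF takes in short pieces that summed FPKM leaves out.

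Other genes of division were listed from general knowledge. Of 67 other mitosis genes compared at 30 h with 0 h, 27 were counted higher with both stimuli, 31 with anti-IgM and 17 with BAFF, and 0, 0 and 2 lower, with medians of 0.87, 0.87 and 0.55. Of all genes compared, 8.35% were counted higher with both stimuli, 8.44% with anti-IgM and 5.21% with BAFF, and 7.86%, 7.34% and 4.1% lower. Of the replication genes, 32 of 39 were counted higher with both stimuli (median 1.72), 30 of 39 with anti-IgM (1.74) and 17 of 38 with BAFF (0.95). Mcm5, a subunit of the replicative helicase, was at 101 FPKM with both stimuli, 109 with anti-IgM and 52.5 with BAFF at 30 h, against 18.01 FPKM unstimulated. Mybl2, which encodes B-MYB, was at 13.7, 13.5 and 6.67 FPKM with both stimuli, anti-IgM and BAFF at 30 h, against 2.66 FPKM unstimulated.

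Of 15 listed genes of the APC/C itself, 1 was counted higher and 1 lower with both stimuli (median 0.29), 2 higher and 0 lower with anti-IgM (0.25), and 1 higher and 0 lower with BAFF (0.17). Of 12 cohesin genes 0 were counted either way with any stimulus, with medians of -0.02, 0.03 and -0.02 with both stimuli, anti-IgM and BAFF. Of the 11 MuvB and DREAM genes compared, 2 were counted higher with both stimuli (median 0.03), 3 with anti-IgM (0.47) and 2 with BAFF (0.20). Of 7 tubulin genes, 4 were counted higher with both stimuli (median 1.08), 4 with anti-IgM (1.19) and 3 with BAFF (0.54). Tuba1a and Tuba1b were both assembled at 0 h, at 59.6 and 118 FPKM. At 30 h Tuba1a alone was assembled with anti-IgM (506 FPKM) and BAFF (238), and Tuba1b alone with both stimuli (483). The calls for these genes thus set 1 name against part of the 0 h pair, and the part of naming in the tubulin counts was not tested. All 4 of these lists are described by counts, without a test, and are to be read against the shares of all genes at 30 h. Counted higher were 8.35% with both stimuli, 8.44% with anti-IgM and 5.21% with BAFF, and counted lower 7.86%, 7.34% and 4.1%. The APC/C and cohesin counts lie near those shares and are no result about those complexes. The MuvB and DREAM counts rest on 2 or 3 of 11 genes and are no result about those complexes either.

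The labelled cell type matched its markers. In every library 7 of the 8 listed B cell markers were assembled, with summed levels of 928 to 2369 FPKM, and no transcript was named Cd79a. A gene without a named transcript can therefore not be taken as not expressed. Cd3d and Cd3e, which define T cells, and the 4 neutrophil genes were assembled in no library, while Lck, which B cells also express, was at 14.9 to 93.8 FPKM. Of the other T cell genes listed, Cd4 was at 1.14 FPKM with BAFF at 30 h, against 4.62 FPKM unstimulated, and was assembled in none of the other libraries. Cd3g was assembled with anti-IgM at 30 h alone, at 1.62 FPKM, and Cd8a in the unstimulated library alone, at 3.15 FPKM. Macrophage markers summed to 154 FPKM in the unstimulated library (6 of 7 genes), 10.3 to 17.1 FPKM at 8 h (4 of 7) and 47.2 to 83.7 FPKM at 30 h (5 of 7). Erythroid markers summed to 0 to 48.1 FPKM in the stimulated libraries, against 223 FPKM unstimulated, nearly all from the globin gene Beta-s. NK cell markers summed to 2.27 to 8.20 FPKM (2 of 5 genes) and plasma cell markers to 119 to 229 FPKM. Germinal centre markers, whose cells divide in vivo, summed to 18.6 to 45.7 FPKM in the stimulated libraries (3 to 5 of 6 genes), against 46.9 FPKM unstimulated (6 of 6). The part of these cell types in the levels of the mitosis genes was not tested.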

How the data were processed

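RNA was extracted with RNeasy, reverse transcribed from poly-dT and made into Illumina TruSeq libraries, per the labels' protocols, which do not state strand. Per the submitters' processing notes, CASAVA 1.8.2, TopHat2 2.0.5, Bowtie2 2.0.0.7, Cufflinks 2.0.2 and Cuffdiff were used on mm10. The deposited files hold, per the file headers, FPKM with a lower and an upper bound for each transcript assembled in each library, so assembly differs between libraries. A deposited merged set without values gave gene names and exons.

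Transcripts of at least 300 bases (25.6% to 33.4% of all FPKM in a library) took the gene with the largest same-strand exon overlap, and FPKM was summed. The distance from FPKM to its upper bound was taken as 2 SD, and SDs were combined in quadrature. Mapped reads, recovered from FPKM and its bounds, were 18.7 to 28.6 M per library. The pseudocount was 1. With 1 library per condition no p-value was calculated, over 12 comparisons. Named genes were the main regulators, the 2 highest members of each role, every member counted lower and those not assembled somewhere. Members, lists and tests were chosen with earlier results of these data known. The alternatives were other pseudocounts, minimum levels, lengths, naming, scaling and measures. Only the counting rule was tested on simulated counts, and the assembly, the naming, the summing of pieces and exon density were not. Calculations used pandas 2.3.3 and numpy 2.4.6 in Python 3.11.15, and figures matplotlib 3.10.9.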

Additional observations from a re-analysis of the deposited data

Results flagged for a closer look

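In 7 cases a member was counted higher in 1 comparison and lower in a related one, and in none was the difference between the 2 effects tested. In 3 of them the time contrast was the same and the stimuli differed. Melk differed by 1.79 with anti-IgM and by -1.12 with BAFF between 30 h and 8 h, 2.91 apart, and by 1.57 with both stimuli, 2.69 above BAFF. Its exon density differences were 1.90 with anti-IgM, 1.73 with both stimuli and 0.60 with BAFF, all upwards. Espl1 differed by 2.04 with anti-IgM and by -1.06 with BAFF between 30 h and 8 h, 3.10 apart, against 2.33 and 1.26 by exon density.

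In the other 4 the times differed and both comparisons share the unstimulated library, against which these members were counted higher with anti-IgM at 30 h and lower with anti-IgM at 8 h. Ccnb1 differed by 1.17 at 30 h and by -1.04 at 8 h, 2.21 apart. Ndc80 differed by 1.23 at 30 h and by -1.10 at 8 h, 2.33 apart. Birc5 differed by 2.50 at 30 h and by -1.02 at 8 h, 3.52 apart. Mki67 differed by 2.41 at 30 h and by -1.03 at 8 h, 3.45 apart. By exon density the 4 differences at 8 h were -0.37 for Ccnb1, -1.11 for Ndc80, -0.61 for Birc5 and -0.98 for Mki67, all downwards.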

How the results depend on the processing

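Of the 12 counts of members counted higher, 5 moved by over 1.5 times under exon density, 4 under the most abundant transcript alone and 1 under a pseudocount of 0.1, and none under the 8 other settings. Against 0 h at 8 h, the 2 counted higher with both stimuli became 0 with the most abundant transcript and 0 by exon density. The 1 with anti-IgM became 3 with a pseudocount of 0.1, 0 with the most abundant transcript and 0 by exon density, and the 3 with BAFF became 0 and 0. At 30 h, the 3 with both stimuli over BAFF became 1 with the most abundant transcript and 0 by exon density, and the 7 with anti-IgM over BAFF became 1 by exon density. With transcripts of every length, Cenpf turned to 3.65 with BAFF at 30 h against 0 h, -4.97 with anti-IgM against BAFF and -5.03 with both stimuli against BAFF. With the most abundant transcript, Cenpf turned against 0 h to 0.17 with anti-IgM at 8 h, and to 0.50, 0.56 and 0.28 with both stimuli, anti-IgM and BAFF at 30 h. Cenpe turned to 1.01 with both stimuli and 1.16 with anti-IgM, and Kif4 to 1.11 with both stimuli. Against 8 h, Cenpe turned to 1.23 and Kif15 to 1.23 with both stimuli, and Melk to 0.14 and Espl1 to 0.26 with BAFF. By exon density, Plk1 with anti-IgM (-0.14) and Ndc80 with both stimuli (-1.11) turned at 8 h. At 30 h against 0 h, Cenpe turned to 1.27 with both stimuli and 1.41 with anti-IgM, and Cenpf to 1.19, 1.22 and 1.56 with both stimuli, anti-IgM and BAFF. Espl1 turned to 1.83 with both stimuli and 1.18 with BAFF, and Kif4 to 1.64 and 1.22. Against 8 h, Cenpe turned to 1.74 with both stimuli, Melk to 0.60 and Espl1 to 1.26 with BAFF, and at 30 h Anln turned to 0.25 with anti-IgM against BAFF and Cenpa to -0.061 with both stimuli against BAFF. Both measures sum or spread pieces of an assembly, and the cause of each turn was not tested. The setting that leaves out Ccnb2, Foxm1, Kif15 and Kif22, whose transcripts cover another gene, was chosen after seeing the data. Scaling by median ratio used factors of 0.931 to 1.05. No paired analysis was possible because each condition is 1 library without a replicate number, and no replicate could be left out for the same reason. Fragments behind a member at 8 h were as few as 16, which limits what these libraries can show there.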
